A study of Mus musculus with 6 samples.

Results

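The genes described here encode the circulating proteins of blood clotting that hepatocytes make: the fibrinogen chains *Fga*, *Fgb* and *Fgg*, the vitamin K dependent zymogens *F2*, *F7*, *F9* and *F10*, the cofactor gene *F5*, and the contact pathway zymogens *F11* and *F12*. They were chosen by gene name and known role, with earlier results of these data known. They are 10 of the 54115 genes in the summed table, and all 10 passed the filter on low counts that left 12524 genes for testing. Liver RNA was compared between 3 WT and 3 *Sirt7* KO mice, which lack the deacylase SIRT7 in the whole body. All 6 were males aged 24 months that had been fasted for 16 h, from a line backcrossed for several generations to C57BL/6J, and the genotypes were bred as littermates from heterozygous parents. SMART-seq HT cDNA was made from total RNA, sequenced from a single end and quantified per transcript. The comparison asked how hepatic gene expression differs with the loss of SIRT7 in old male mice.

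Fibrinogen is a dimer of paired Aα, Bβ and γ chains, encoded by *Fga*, *Fgb* and *Fgg*, and thrombin cuts it so that it polymerizes into fibrin. The other members form the cascade that produces thrombin: factor VII starts it with tissue factor, factors XII and XI feed it from the contact system, factor IX activates factor X, and factor X with its cofactor factor V cuts prothrombin. Hepatocytes secrete these proteins into plasma, and fibrinogen is also a classical acute phase protein whose synthesis rises when interleukin 6 activates STAT3.

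Each library held 9994860 to 13424776 reads assigned to transcripts. Read counts scaled to library size (CPM, with TMM factors of 0.95 to 1.12) are used below for the same gene in different mice, and TPM, which also accounts for transcript length, for levels of different genes. Over all genes, 1 of 12524 was called by edgeR at an adjusted p under 0.05 with a fold change over 1.5, and the median log2 fold change was -0.0061. The targeted gene was lower in the *Sirt7* KO mice, with 28.6 to 41.8 CPM of *Sirt7* against 45.5 to 55.2 CPM in the WT mice. This gene total is a weak check of the labels, since the log2 difference of -0.41 turned to 0.71 when TPM was used in place of reads. The hepatocyte list of markers (*Alb*, *Ttr* and others) summed to 35362 to 44098 TPM, and all 6 of its genes found in the annotation were detected.

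The fibrinogen genes lie side by side within 42140 bases of chromosome 3 in GRCm38. *Fgg* (ENSMUSG00000033860.13) spans 83007724 to 83015049 on the plus strand, *Fga* (ENSMUSG00000028001.16) spans 83026076 to 83033627 on the plus strand, and *Fgb* (ENSMUSG00000033831.5) spans 83040141 to 83049863 on the minus strand. *F7* (ENSMUSG00000031443.7, 13026034 to 13035809) and *F10* (ENSMUSG00000031444.16, 13037308 to 13056676) are 1498 bases apart on chromosome 8. *F11* (ENSMUSG00000031645.4, chromosome 8, 45241174 to 45262031) lies 4657 bases from *Klkb1*, the gene of plasma prekallikrein. The remaining members stand alone: *F2* (ENSMUSG00000027249.15) on chromosome 2 at 91625320 to 91636414, *F5* (ENSMUSG00000026579.8) on chromosome 1 at 164151838 to 164220277, *F9* (ENSMUSG00000031138.4) on chromosome X at 59999464 to 60030759, and *F12* (ENSMUSG00000021492.15) on chromosome 13 at 55417958 to 55426793.

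All 10 members had an entry in the RefSeq promoter table (GRCm38.p6), and the stretch before the start is shown for the fibrinogen chains, whose values moved together below, and for *F11* and *F9*, which lay at the upper and lower ends of the fold changes. Sequences run 5′ to 3′ on the strand of the gene, up to 250 bases, and capitals mark matches to the motifs named after them. The stretch for *Fga* stops at 173 bases because GENCODE places a start upstream of the one in RefSeq.
*Fga*, chr3:83025903-83026075 (+): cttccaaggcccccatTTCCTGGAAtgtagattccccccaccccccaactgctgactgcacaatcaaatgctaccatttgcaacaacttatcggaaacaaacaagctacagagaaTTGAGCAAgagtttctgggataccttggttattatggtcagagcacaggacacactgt
*Fgb*, chr3:83049864-83050113 (-): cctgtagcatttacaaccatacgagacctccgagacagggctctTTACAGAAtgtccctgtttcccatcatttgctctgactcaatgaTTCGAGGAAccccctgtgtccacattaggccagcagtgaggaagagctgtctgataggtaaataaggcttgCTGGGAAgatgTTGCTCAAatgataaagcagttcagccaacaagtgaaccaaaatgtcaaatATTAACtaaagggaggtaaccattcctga
*Fgg*, chr3:83007474-83007723 (+): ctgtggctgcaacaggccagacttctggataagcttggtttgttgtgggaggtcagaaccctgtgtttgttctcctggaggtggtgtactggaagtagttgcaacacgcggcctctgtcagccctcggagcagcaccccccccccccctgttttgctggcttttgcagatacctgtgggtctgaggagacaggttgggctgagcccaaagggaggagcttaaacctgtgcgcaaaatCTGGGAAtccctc
*F11*, chr8:45262032-45262281 (-): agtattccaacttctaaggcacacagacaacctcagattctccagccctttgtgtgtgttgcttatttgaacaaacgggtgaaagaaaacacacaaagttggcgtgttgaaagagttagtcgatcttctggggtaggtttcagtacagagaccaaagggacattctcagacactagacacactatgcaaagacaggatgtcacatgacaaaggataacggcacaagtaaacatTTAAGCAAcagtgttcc
*F9*, chrX:59999214-59999463 (+): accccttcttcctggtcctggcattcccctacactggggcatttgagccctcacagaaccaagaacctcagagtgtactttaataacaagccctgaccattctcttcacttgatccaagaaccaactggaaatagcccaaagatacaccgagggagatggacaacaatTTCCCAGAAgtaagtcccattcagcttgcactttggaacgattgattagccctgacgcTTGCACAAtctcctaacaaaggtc

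A script searched the 250 bases before the RefSeq start on both strands for 4 sets of letters. The palindromic STAT spacing TTCNNNGAA was found before *Fga*, *Fgb* and *F9*, and in 7.02% of all 32851 promoters. The letters CTGGGAA, known from interleukin 6 response elements, were found before *Fgb*, *Fgg* and *F9* and in 9.1% of promoters. In *F9* the CTGGGAA match, on the other strand, lies inside the STAT match. The C/EBP spacing TTNNGNAA was found before *Fga*, *Fgb*, *F9* and *F11* and in 36.8% of promoters. The half-site GTTAAT of HNF1, a hepatocyte factor, was found before *Fgb* and *Fga* and in 6.43% of promoters, the *Fga* match lying in the stretch not shown. The matches are letters within these windows only. *Fga*, *Fgb* and *F9* had matches to both STAT and C/EBP letters, at log2 fold changes of 0.87, 0.63 and -0.08. Whether the matches bear on the levels was not tested.

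The members covered a wide range of levels. In TPM, averaged over the 6 mice, *Fga* (2261) and *Fgg* (2213) were the most abundant, followed by *Fgb* (1321), *F2* (1091), *F12* (460.4), *F10* (313), *F7* (54.4), *F9* (27.2), *F5* (21.6) and *F11* (11.6). The order of *Fga* and *Fgg* was not settled, because *Fga* was the higher in 3 of 6 mice. *Fgb* exceeded *F2*, the gene of prothrombin, in 4 of 6 mice, and *F5* exceeded *F11* in 5 of 6 mice. Every other neighbouring pair kept its order in all 6 mice. The fibrinogen chains together made up 0.665, 0.284 and 0.386% of TPM in the 3 WT livers and 0.742, 0.731 and 0.669% in those of the KO mice. The KO mice all lay above the WT mice, the lowest of them only just above WT mouse 1. The difference of 0.269 percentage points had an exact permutation p = 0.1 (two-sided), the smallest that 3 mice against 3 allow. As a share of reads, the chains took 1.73, 0.724 and 1.02% in WT mice and 2, 1.71 and 1.56% in KO mice, and on this scale the genotypes overlapped. The other 7 members together made up 0.194% ± 0.0129 of TPM in WT and 0.202% ± 0.0291 in KO mice (SD, n = 3, exact permutation p = 0.7).

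**Figure D1:**
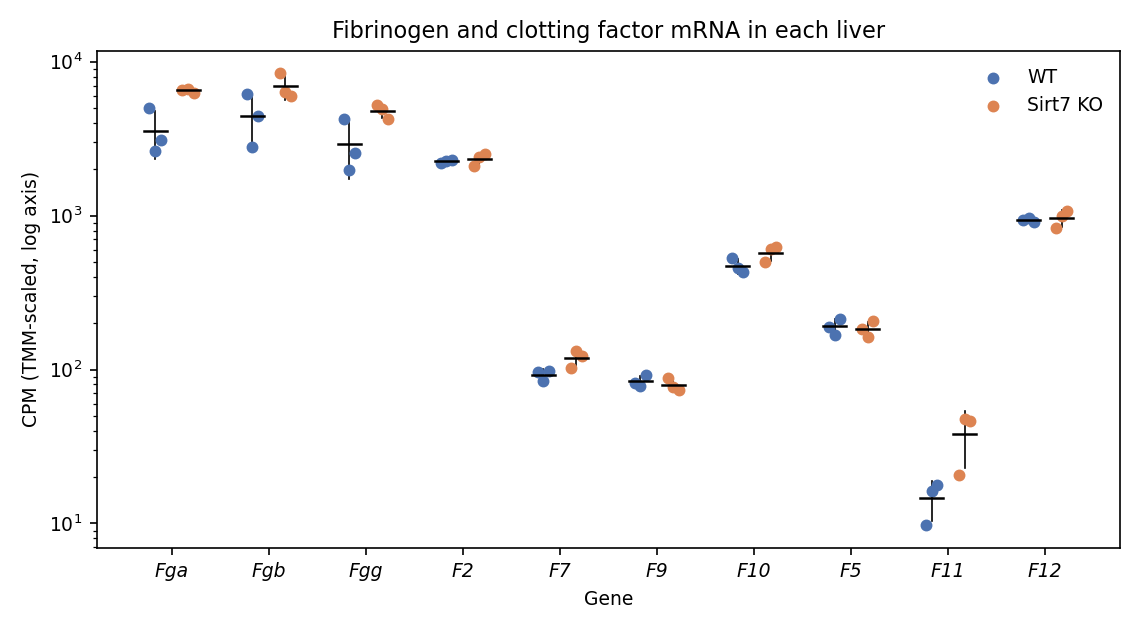
CPM of each member (log axis) in the 3 WT and 3 Sirt7 KO livers, with points for mice, a horizontal bar for the mean and a vertical bar for 1 SD. The KO points of Fga, F7 and F11 lie above all WT points, and the points of the other 7 genes overlap.

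No member was called by edgeR (0 of 10, against 0.00798% of all tested genes). At an unadjusted p under 0.05, 4 of 10 members were higher in the *Sirt7* KO mice (*Fga*, *Fgg*, *F7* and *F11*) and none was lower, against 6.54% and 4.78% of all tested genes. Of these, *Fga* and *F11* passed in each of the 16 alternative fits, while *Fgg* and *F7* did not pass in all of them. In CPM, the KO mice lay above every WT mouse for *Fga*, *F7* and *F11* (3 of 10, against 8.74% of genes) and below every WT mouse for no member (8.09%). In TPM the genotypes overlapped for *F7*. The median log2 fold change over the 10 members was 0.32, and 8 of 10 were above 0, against 49.3% of all genes. That count was 7 with limma on TPM, 6 with total-count scaling, 6 without KO mouse 3, and 9 without KO mouse 2 or WT mouse 3. The median of all genes was itself lower with limma on TPM (-0.055) and with total counts (-0.11). The share of all genes above 0 was not counted in these fits. In bulk liver, a larger number of expressing cells and more RNA per cell cannot be told apart. Members next to each other in the genome or in the same complex are not independent.

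The mean levels of all 3 fibrinogen chains were higher in the *Sirt7* KO mice, by 1.83-fold for *Fga*, 1.64-fold for *Fgg* and 1.55-fold for *Fgb*, but the genotypes overlapped for *Fgg* and *Fgb* and none was called by edgeR. *Fga*, the chain that carries fibrinopeptide A, measured 4970, 2615 and 3098 CPM in WT and 6595, 6673 and 6246 CPM in KO mice. Every KO mouse was above every WT mouse, and the KO mice were within a 1.07-fold range while the WT mice spanned 1.90-fold. The log2 fold change was 0.87 ± 0.25 (SE), with a 95% interval of 0.30 to 1.43 and an adjusted p of 0.24 by edgeR. DESeq2, the tool used in the study, called *Fga* with an adjusted p of 0.027 with transcript length offsets and 0.0094 without them, at 2.29% and 2.31% of all genes called.

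*Fgg* measured 4274, 1991 and 2534 CPM in WT and 5252, 4936 and 4249 CPM in KO mice. The genotypes overlapped by a single pair, KO mouse 3 lying just under WT mouse 1. Its log2 fold change was 0.71 ± 0.28 (SE), with an adjusted p of 0.37 by edgeR, and DESeq2 did not call it (adjusted p = 0.19 with offsets and 0.11 without). *Fgb* measured 6210, 2775 and 4415 CPM in WT and 8407, 6407 and 5948 CPM in KO mice. Here WT mouse 1 lay above KO mouse 3, and KO mouse 1 was the highest of all. The log2 fold change of *Fgb* was 0.63 ± 0.29 (SE), with an adjusted p of 0.46 by edgeR. Although *Fgb* had the highest mean CPM of the 3 chains in each genotype, its long transcript placed it below the others in TPM. In KO mice 2 and 3 *Fga* had more reads than *Fgb*.

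The chains kept a common pattern over the mice: WT mouse 2 was the lowest for each of them, WT mouse 3 the next, and WT mouse 1 lay near the KO mice. The size of the difference therefore depended on which WT mouse was included. Without WT mouse 2 the log2 fold changes were 0.69 for *Fga*, 0.38 for *Fgb* and 0.50 for *Fgg*, and without WT mouse 1 they were 1.18, 0.94 and 1.08. None was called in either case. The SD of log2 CPM within genotype was 0.34 for *Fga*, 0.45 for *Fgb* and 0.41 for *Fgg*, above the median of 0.28 over all tested genes.

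Ratios between chains, which do not depend on library scaling, differed less than the chains themselves. In TPM, *Fga* exceeded *Fgb* by 1.55-, 1.82- and 1.36-fold among WT mice and by 1.52-, 2.02- and 2.04-fold in the KO mice. On the log2 scale the KO mice differed from the WT mice by 0.23 for *Fga*/*Fgb*, 0.09 for *Fgg*/*Fgb* and 0.14 for *Fga*/*Fgg*. Adjusted over the 3 ratios, the exact permutation p-values (two-sided) were 0.45, 0.6 and 0.45. The longer *Fga* isoform, Fga-202, made up 1.27 to 1.42% of *Fga* TPM in WT and 0.747 to 1.63% in KO mice, and Fgg-202 made up 3.85 to 4.31% and 2.53 to 4.73% of *Fgg* TPM. Both sets of shares overlapped between genotypes.

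The genes beside the cluster had smaller fold changes. *Plrg1*, a splicing factor gene 5658 bases beyond *Fgb*, had 17.4 ± 2.65 CPM in WT and 20.0 ± 1.56 CPM in KO mice (SD, n = 3), a log2 fold change of 0.20 ± 0.17 (SE, edgeR adjusted p = 0.71). *Lrat*, on the *Fgg* side, had a log2 fold change of 0.05 ± 0.45 (SE). Whether these differed from the fibrinogen genes was not tested. An antisense gene, Gm30097, shares 4.12% of the 31-base words of *Fgg*, and the methods do not state that counting used strand. *F5* shares 3.14% of its words with an overlapping antisense gene, Gm16548. *Fga* and *Fgb* share no such word with another gene.

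**Figure D2:**
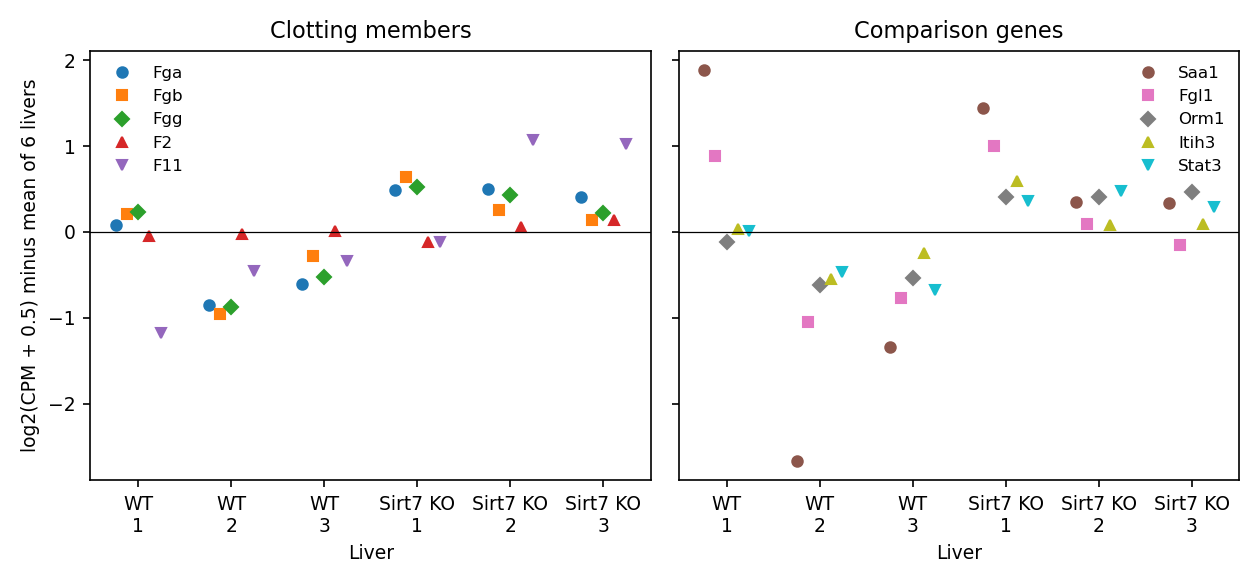
log2(CPM + 0.5) of named genes in each liver, minus the mean of that gene over the 6 livers, with clotting members on the left and acute phase or related genes on the right. Fga, Fgb and Fgg are lowest in WT mouse 2, F2 stays near 0 in all livers, and F11 is lowest in WT mouse 1.

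Among the vitamin K dependent zymogens, whose glutamate residues are carboxylated before secretion, only *F7* passed an unadjusted p under 0.05. *F7*, the gene of the factor that starts clotting with tissue factor, measured 96.4, 84.1 and 97.6 CPM in WT and 102, 132 and 123 CPM in KO mice. The KO mice were all above the WT mice, with KO mouse 1 only slightly so. The log2 fold change was 0.36 ± 0.15 (SE), with an adjusted p of 0.41 by edgeR. *F10*, its neighbour and the gene of the factor that cuts prothrombin, measured 531, 458 and 428 CPM in WT and 497, 606 and 623 CPM in KO mice. WT mouse 1 lay above KO mouse 1, so the genotypes overlapped, and the log2 fold change was 0.28 ± 0.16 (SE, adjusted p = 0.56). *Proz*, the third gene in this stretch of chromosome 8, which encodes the anticoagulant cofactor protein Z, had 247 ± 28.3 CPM in WT and 324 ± 29.5 CPM in KO mice (SD, n = 3) and a log2 fold change of 0.39 ± 0.15 (SE, edgeR adjusted p = 0.37).

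*F2*, the gene of prothrombin, was the steadiest member. It measured 2211, 2250 and 2299 CPM in WT and 2104, 2389 and 2522 CPM in KO mice. The KO mice lay on both sides of the WT mice. Its log2 fold change was 0.05 with a 95% interval of -0.30 to 0.41, and its SD within genotype of 0.097 (log2 CPM) was lower than that of all but 4.14% of tested genes. *F9*, the factor missing in hemophilia B, measured 82.0, 78.6 and 92.0 CPM in WT and 88.2, 77.2 and 73.7 CPM in KO mice. These values overlapped, with a log2 fold change of -0.08 and a 95% interval of -0.40 to 0.24.

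*F11* had the largest fold change of the 10 members and the lowest level. It measured 9.74, 16.3 and 17.8 CPM in WT and 20.7, 47.8 and 46.5 CPM in KO mice, from 115, 180 and 240 reads and 226, 451 and 483 reads. All KO mice were above all WT mice, but KO mouse 1 was much closer to the WT mice than to the other KO mice. Factor XI is the zymogen that amplifies clotting by activating factor IX. The log2 fold change was 1.39 ± 0.34 (SE), a 2.62-fold difference, with a 95% interval of 0.63 to 2.15 and an adjusted p of 0.18 by edgeR. Leaving out KO mouse 1 gave a log2 fold change of 1.69 and an adjusted p of 0.020, in a fit that called 252 genes (1.95%). DESeq2 called *F11* with adjusted p-values of 0.0086 with and 0.0033 without length offsets. The within-genotype SD of *F11* (0.57 in log2 CPM) exceeded that of 87.4% of tested genes. The order of the mice was unlike that of fibrinogen: WT mouse 1 was the highest WT mouse for each chain and the lowest for *F11*.

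*Klkb1*, beside *F11* and a paralog of it, had 153 ± 12.4 CPM in WT and 159 ± 13.1 CPM in KO mice (SD, n = 3) and a log2 fold change of 0.06 with a 95% interval of -0.26 to 0.38. *F11* shares no 31-base word with another gene. *F12*, the gene of the factor that starts the contact pathway, measured 934, 972 and 910 CPM in WT and 832, 992 and 1072 CPM in KO mice. The KO values enclosed the WT values, and the log2 fold change was 0.04 with a 95% interval of -0.31 to 0.40. *F5*, the cofactor of factor X, measured 190, 168 and 214 CPM in WT and 182, 163 and 206 CPM in KO mice. It overlapped as well, with a log2 fold change of -0.05 and a 95% interval of -0.41 to 0.30.

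Isoform shares were tested for the members with more than 1 transcript above 5% of the gene, which were *F10* and *F11*. F10-205 held 71.1 to 74.3% of *F10* TPM in WT and 68.2 to 72.3% in KO mice, a difference of -2.23 percentage points (exact permutation p = 0.3, two-sided, adjusted p = 0.6). F10-204 was estimated at 8.53% in KO mouse 3, at 0.715% in WT mouse 3 and at 0 in the other 4 mice. For F11-201 the difference was -0.23 percentage points (exact permutation p = 1). Of the 31-base words of *F10*, 4.40% also occur in transcripts of other genes.

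**Figure D3:**
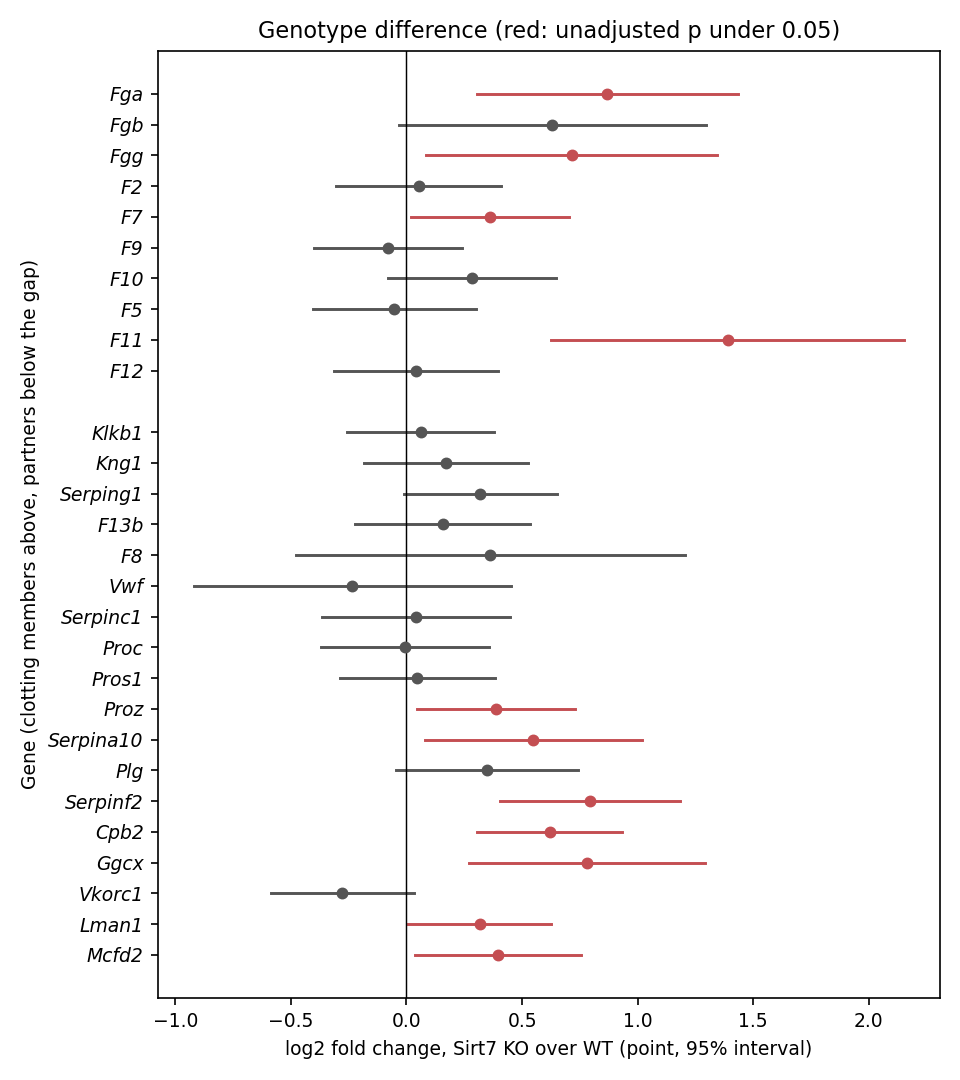
Log2 fold change of Sirt7 KO over WT (point) with its 95% interval (line) for the 10 members above the gap and 18 partner genes below it, in red where the unadjusted p was under 0.05. F11, Fga, Fgg and F7 are red among the members, and Serpinf2, Cpb2, Ggcx, Mcfd2, Lman1, Proz and Serpina10 among the partners, none of them called in this edgeR fit.

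The partners of these proteins, and the further lists below, were read from the same edgeR fit. All lists were chosen with earlier results of these data known. Over all tested genes, every KO mouse lay above every WT mouse for 8.74% and below for 8.09%. In at least 1 of the 16 alternative fits the adjusted p was under 0.05 for *Serpinf2*, *Cpb2*, *Ggcx*, *Orm1*, *Orm2*, *Stat3* and *Cebpb*. Of 4 contact system partners none passed an unadjusted p under 0.05. *Kng1*, which encodes kininogen, had a log2 fold change of 0.17, and *Serping1*, the gene of the C1 inhibitor, 0.32 (adjusted p = 0.46). Of 5 other procoagulant genes 4 were tested and none passed. *F13b* (0.16), *F8* (0.36), *Vwf* (-0.23) and *F3* (-0.15) all had intervals that included 0, and *F13a1* was too low to test, at 0 to 15 reads per library.

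Of 10 anticoagulant genes 8 were tested, and 3 were higher in KO mice at an unadjusted p under 0.05, against 6.54% of all tested genes. *Serpina10*, which encodes the protein Z dependent inhibitor, had a log2 fold change of 0.55 ± 0.21 (SE), and *Thbd*, the gene of thrombomodulin, 1.60 ± 0.57 at only 0.423 to 2.84 CPM. The *Thbd* value was 0.58 with limma on TPM, and the gene no longer passed an unadjusted p under 0.05 without WT mouse 1, WT mouse 3, KO mouse 1 or KO mouse 3. *Proz* is the third. The main inhibitors had differences near 0: 0.04 for *Serpinc1* (antithrombin), -0.0059 for *Proc* (protein C) and 0.05 for *Pros1* (protein S), and the signs of these turned in several alternative fits. The median of the 8 was 0.30, and it was 0.16 without KO mouse 3, 0.18 without WT mouse 1 and 0.19 with total counts.

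In the fibrinolysis list 6 of 9 genes were tested, and 2 were higher at an unadjusted p under 0.05, against 6.54% of all tested genes. *Serpinf2*, which encodes α2-antiplasmin, measured 762, 579 and 738 CPM in WT and 1054, 1294 and 1256 CPM in KO mice. The genotypes did not overlap, and the log2 fold change was 0.79 ± 0.17 (SE, adjusted p = 0.16 by edgeR). *Cpb2*, the gene of a carboxypeptidase that protects fibrin from plasmin, measured 282, 263 and 307 CPM in WT and 419, 456 and 434 CPM in KO mice. These did not overlap either, with a log2 fold change of 0.62 ± 0.14 (SE, adjusted p = 0.17 by edgeR). *Plg*, the gene of plasminogen, had 2034 ± 180 CPM in WT and 2589 ± 342 CPM in KO mice (SD, n = 3), a log2 fold change of 0.35 with an adjusted p of 0.50 and no overlap in CPM. In TPM its genotypes overlapped, with WT mouse 1 (783) above KO mouse 1 (693). *Plau* and *Plaur* were among those too low to test.

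For carboxylation and secretion 4 of 6 genes were higher at an unadjusted p under 0.05, against 6.54% of all tested genes. *Ggcx*, the vitamin K dependent carboxylase that modifies the zymogens, measured 21.6, 34.8 and 41.6 CPM in WT and 51.6, 59.6 and 57.6 CPM in KO mice. Its genotypes did not overlap, with a log2 fold change of 0.78 ± 0.23 (SE, adjusted p = 0.24 by edgeR). *Lman1* (0.32) and *Mcfd2* (0.40) were also among them, and their products form the cargo receptor for factors V and VIII. The value of *Lman1* fell to 0.14 in DESeq2 and 0.13 in edgeR with length offsets, to 0.20 with total counts and to 0.078 with limma on TPM, and it did not pass an unadjusted p under 0.05 in any of these. *Vkorc1*, which recycles vitamin K, went the other way: every KO mouse was below every WT mouse, with 244 ± 20.8 against 296 ± 5.57 CPM (SD, n = 3) and a log2 fold change of -0.28 (adjusted p = 0.49).

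The acute phase list, genes that the liver induces in inflammation, had 3 of 12 genes higher at an unadjusted p under 0.05, against 6.54% of all tested genes. Its median log2 fold change was 0.44. That median moved with single mice: it was 0.15 without WT mouse 2 (9 of 12 genes above 0), 0.29 without WT mouse 3 (8 of 12) and 0.82 without WT mouse 1. *Orm1*, which encodes an orosomucoid, measured 721, 509 and 538 CPM in WT and 1035, 1041 and 1084 CPM in KO mice. The genotypes did not overlap, and the log2 fold change was 0.84 ± 0.17 (SE, adjusted p = 0.15 by edgeR). *Orm2* had 1.70 ± 0.36 (SE, adjusted p = 0.15) and *Itih3*, a carrier of hyaluronan, 0.51 ± 0.21 (SE, adjusted p = 0.41). *Saa1*, the most inducible acute phase gene, chosen after its values were seen, measured 631, 26.5 and 67.1 CPM in WT and 466, 217 and 216 CPM in KO mice. WT mouse 1 was the highest of all for *Saa1* and WT mouse 2 the lowest, which is the order of the WT mice for each fibrinogen chain. In the acute phase list only *Hp* had another order among WT mice, with 7108, 4798 and 4430 CPM. *Fgl1*, a fibrinogen-like hepatokine from the fibrinolysis list, had the fibrinogen order among WT mice (772, 201 and 245 CPM) with the last pair close. The genotypes overlapped for *Saa1* and *Fgl1*, with log2 fold changes of 0.31 ± 0.93 (SE) and 0.44 ± 0.50 (SE).

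Averaged over the list and centred on the 6 mice, log2 CPM of the acute phase genes stood at 0.59, -1.08 and -0.57 for WT livers and at 0.68, 0.20 and 0.18 for KO livers. The corresponding values for the fibrinogen chains were 0.17, -0.89 and -0.47, and 0.55, 0.39 and 0.26. Both sets were lowest in WT mouse 2. How far the acute phase state of the single mice enters the fibrinogen difference was not tested. Of 7 genes for interleukin 6 and STAT3 signalling 1, *Stat3*, passed an unadjusted p under 0.05, against 11.3% of all tested genes. It measured 144, 103 and 89.0 CPM in WT and 184, 199 and 175 CPM in KO mice. It did not overlap and had a log2 fold change of 0.73 ± 0.19 (SE, adjusted p = 0.20 by edgeR).

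Of 11 hepatocyte transcription factor genes all had log2 fold changes below 0, with a median of -0.35, while 49.3% of all tested genes were above 0. At an unadjusted p under 0.05, 4 were lower, against 4.78% of all tested genes. In the fits that used transcript length 10 of 11 were below 0, and 9 to 11 of 11 when 1 mouse was left out, with the median at -0.21 without WT mouse 3, -0.24 without WT mouse 1 and -0.52 without KO mouse 1. *Nr5a2* (-0.78) and *Onecut1* (-0.81) were lower in every KO mouse than in any WT mouse. *Cebpb*, an acute phase transcription factor, measured 56.9, 68.1 and 28.1 CPM in WT and 34.1, 11.1 and 5.01 CPM in KO mice. It overlapped between genotypes at a log2 fold change of -1.60 ± 0.59 (SE, adjusted p = 0.36). Without KO mouse 1 this was -2.66, with an adjusted p of 0.030 by edgeR, and without KO mouse 3 it was -1.17. *Ppara*, which drives the fasting response, had a log2 fold change of -0.57 (adjusted p = 0.38), and -1.04 with limma on TPM. Their part in the levels of the clotting genes was not tested.

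Markers of other cells were examined beside these results. The 6 Kupffer cell markers summed to 18.7 to 62.7 TPM in WT and 23.2 to 47.4 TPM in KO mice, and none passed an unadjusted p under 0.05. The 6 sinusoidal endothelial markers summed to 26.4 to 35.6 and 32.4 to 49.0 TPM, again with none passing. Erythroid markers summed to 721 to 1316 TPM in WT and 704 to 1810 TPM in KO mice, and all 5 had log2 fold changes above 0, also in each alternative fit (0.38 to 1.26 in edgeR with TMM, median 0.72, beside 0.71 for the fibrinogen chains). *Alas2*, the erythroid enzyme that starts heme synthesis, was the 1 of 5 higher at an unadjusted p under 0.05, against 6.54% of all tested genes. The globin genes were high in KO mice 1 and 3 and low in KO mouse 2, where *Hba-a2* measured 133 CPM against 153 to 257 CPM in WT mice. *Alas2* went the other way, with 198 CPM in KO mouse 2 against 49.6 to 94.5 CPM in WT mice. Each fibrinogen chain was above the WT mean in KO mouse 2. The median of the erythroid markers was 0.37 without KO mouse 1 and 1.15 without KO mouse 2. Their part in the fibrinogen difference was not tested. Of 5 platelet and megakaryocyte markers 4, among them *Pf4* and *Ppbp*, were too low to test. All 5 together summed to 3.33 to 4.96 TPM in WT and 1.70 to 3.72 TPM in KO mice. The tested marker, *Itga2b*, had a log2 fold change of -0.45 ± 0.46 (SE), and its genotypes overlapped.

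By root mean square difference of centred log2 CPM over the 6 mice, the tested genes most like the mean fibrinogen profile were *Blcap* (0.078), *Bicdl1* (0.15), *Hspa13* (0.15), *Med24* (0.16) and *4930524O07Rik* (0.16). The median over all tested genes was 0.58. Of the other members *F7* (0.39) and *F10* (0.40) were nearest to that profile and *F11* (0.76) the farthest.

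**Figure D4:**
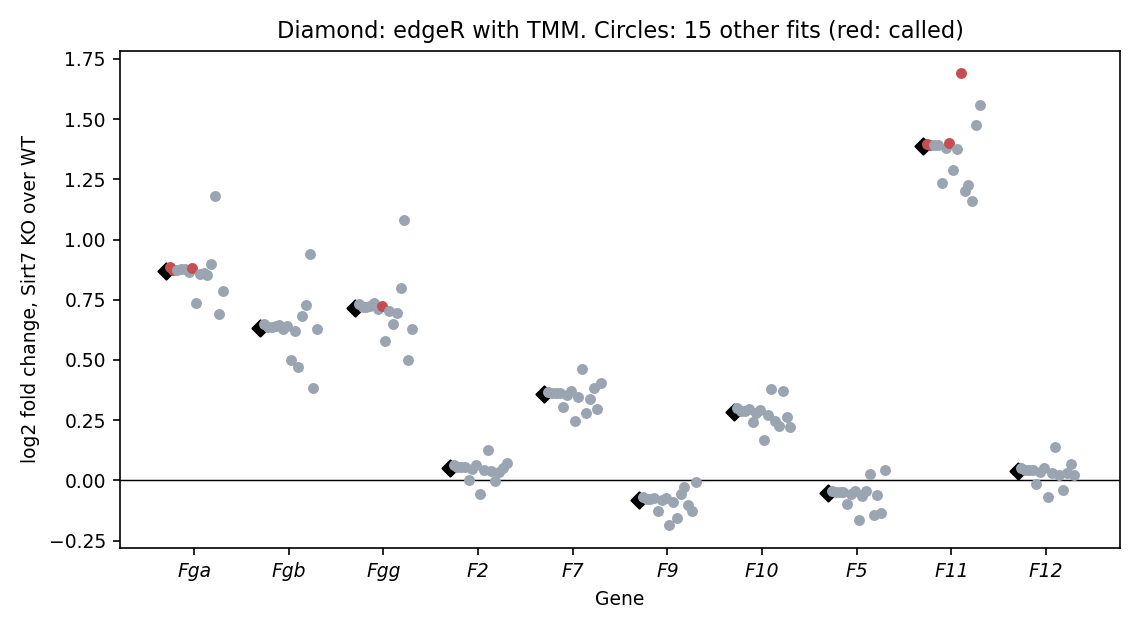
Log2 fold change of each member, Sirt7 KO over WT, in edgeR with TMM (diamond) and in 15 alternative fits (circles, red where called at an adjusted p under 0.05 with a fold change over 1.5). Fga, Fgb, Fgg, F7, F10 and F11 stay above 0 and F9 below 0 in all fits, with red circles for Fga, Fgg and F11 only.

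Across 16 alternative fits the log2 fold change ranged from 0.69 to 1.18 for *Fga*, 0.38 to 0.94 for *Fgb*, 0.50 to 1.08 for *Fgg* and 1.16 to 1.69 for *F11*. It stayed above 0 for *F7* (0.25 to 0.46) and *F10* (0.17 to 0.38) and below 0 for *F9* (-0.19 to -0.0063). The signs of *F2*, *F5* and *F12* were not stable. With no filter on low counts *Fga*, *Fgg* and *F11* were called (3 of 10 members, against 2.27% of genes), and the same 3 passed an unadjusted p under 0.05 with a fold change over 1.5 (against 7.39%). No member was called by limma on TPM or with RLE or upper-quartile scaling (0.00798% of genes each), with length offsets in edgeR or total counts (0.016% each), or with a mean of at least 50 counts (0.0112%). Leaving out 1 mouse other than KO mouse 1 gave no called member either (0 to 0.0155% of genes).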

How the data were processed

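Genotype, age and fasting were taken from the labels, and strain and breeding from the study's methods. Per the labels and methods, the authors trimmed reads (Trim Galore 0.6.5) and quantified them against the GRCm38 transcriptome with Salmon 1.2.1. They deposited, per mouse, an estimated count per transcript, not normalized, and TPM, which the authors' run scales by effective length and library total. The annotation release is not given in the sources used here.

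Estimated counts were summed per GENCODE M21 gene and rounded. Of 140992 transcripts, 1201 had no gene there (0.303 to 0.492% of reads) and were left out. edgeR 4.0.16 (R 4.3.3) was run as a quasi-likelihood test with TMM and filterByExpr (minimum count 10), with Benjamini-Hochberg adjustment over 12524 genes, and it was tested on simulated data. Intervals of fold changes are 95%. Levels were compared as TPM, and log2 CPM used a pseudocount of 0.5. Alternatives used DESeq2 1.42.0, limma 3.58.1 on log2(TPM + 0.5), other scalings and filters, and leaving out each mouse. Single values were compared by exact permutation, two-sided. Mice of a genotype differed beyond counting noise (chi-square of at least 15.8 per gene). Reads carry no molecular identifiers that the methods name, so depth covers counting error only.

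Named are all members, *Sirt7*, 13 fixed partners, in each list genes called or up to 4 at an unadjusted p under 0.05 and otherwise the largest change, and the 5 most similar profiles. Some list genes are not reported here. Genomic neighbours and genes that share words are named for their position. The members and lists were chosen with earlier results of these data known.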

Additional observations from a re-analysis of the deposited data

How the results depend on the processing

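With 3 mice per genotype, exact permutation cannot go below p = 0.1, and *F11* rests on 115 to 483 reads per mouse. The count of genes called by edgeR (1) was 264 (DESeq2 with length offsets), 256 (DESeq2 without), 2 (length offsets in edgeR), 633 (no filter on low counts), 2 (total counts only) and 925 (unadjusted p under 0.05 with a fold change over 1.5), and 0 to 252 when 1 mouse was left out, the highest without KO mouse 1. Members called (0) became 2 with either DESeq2 fit (*Fga*, *F11*), 3 with no filter and 3 with the unadjusted p (*Fga*, *Fgg* and *F11* in both), and 0 to 1 when 1 mouse was left out. Members at an unadjusted p under 0.05 (4) became 5 in both DESeq2 fits, which added *Fgb*, 2 with limma on TPM and 2 with total counts (*Fga* and *F11* in both), and 2 to 4 when 1 mouse was left out. In edgeR with TMM 11.3% of all tested genes passed that threshold. The share was not counted in the other fits, so their member counts have no background to be read against. With no filter the 4 were *Fga*, *Fgb*, *Fgg* and *F11*, with *Fgb* in place of *F7*. The median log2 fold change of all members was 0.26 to 0.42 when 1 mouse was left out. The causes were not tested.

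Total counts moved the median of all genes by -0.11, and fold changes on that scale are relative to it. Signs turned there for *F2* (-0.057), *F12* (-0.070), *Klkb1* (-0.043), *Serpinc1* (-0.068) and *Pros1* (-0.067). With limma on TPM they turned for *F12* (-0.014), *Serpinc1* (-0.034), *Pros1* (-0.13) and *Sirt7* (0.71), and with length offsets for *Sirt7* (0.81 in DESeq2, 0.80 in edgeR), *Pros1* (-0.064 in DESeq2, -0.069 in edgeR) and *Proc* (0.0011 in DESeq2). *Proc* was 0.0032 with no filter. Leaving out 1 mouse gave -0.0040 to 0.13 for *F2*, -0.14 to 0.042 for *F5*, -0.041 to 0.14 for *F12*, -0.0018 to 0.13 for *Klkb1*, -0.035 to 0.16 for *Serpinc1*, -0.11 to 0.10 for *Proc*, -0.060 to 0.10 for *Pros1*, -0.44 to 0.0018 for *Vwf* and -0.45 to 0.060 for *F3*. The log2 ratio *Fgg*/*Fgb* ranged from -0.0039 to 0.18, *Fga*/*Fgb* from 0.13 to 0.37, *Fga*/*Fgg* from 0.08 to 0.20, and the share difference from -3.09 to 3.10 percentage points for F11-201 and -3.11 to -1.07 for F10-205. Of 160 fits of single members, 144 kept direction and side of the threshold, 9 newly passed it and 7 turned.

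Replicate numbers 1 to 3 recur in both genotypes, but same-numbered mice are different animals. Their deviations from the genotype means correlated at 0.065, 0.080 and -0.044. Pairs of unlike number ran from -0.10 to 0.049, so the same-numbered pairs 1 and 2 were the highest and pair 3 was not. Whether the numbers mark a shared batch was not tested. WT mouse 3 correlated best with KO mouse 1 (0.030) rather than with its own number. With the replicate number as a block, 41 of 12524 genes were called and 1 member, *F11* (adjusted p = 0.045), and the 4 members at an unadjusted p under 0.05 held *Fgb* in place of *F7*.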
